A study of Mus musculus with 9 samples.

Results

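Broad H3K27me3 domains are stretches of the genome in which peaks of trimethylated lysine 27 of histone H3 follow one another closely. In MYCN-driven T-cell lymphoma of the mouse, the called H3K27me3 peaks of the autosomes and of X and Y were joined wherever the gap between neighbours was 3000 bp or less, and the joined regions of 20000 bp or more were kept. This gave 2017 domains of 24143 joined regions in all. The joined regions below the width limit, 6734 of 5 to under 20 kb and 15392 under 5 kb, served as comparison. The domains were thus selected on the positions of H3K27me3 peaks, and their width and H3K27me3 enrichment are given as description only, without a test.

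The chromatin came from MYCN-driven lymphoma cells taken from the thymus of mice of strain C57BL/6J. It was profiled by ChIPmentation, a chromatin immunoprecipitation in which a transposase adds sequencing adapters to the antibody-bound chromatin. There was 1 library for each of 7 antibodies (against EZH2, SUZ12, H3K27me3, H3K4me3, H3K27ac, N-MYC and p300), and 2 input libraries whose signal was not analysed here. No normal thymus, treatment or second genotype was part of the analysis, the labels do not say which animal gave which library, and with 1 library per antibody no value below has a replicate check, so no p-value is given. Intervals are 95% Wilson intervals and cover counting error only.

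EZH2 is the methyltransferase of Polycomb repressive complex 2 (PRC2), and SUZ12 is the subunit that holds the complex together. PRC2 places H3K27me3, and in vertebrates it gathers at CpG islands of genes that are silent in the cell, above all genes of embryonic patterning, from where the mark spreads over the surrounding chromatin. H3K4me3 marks the starts of active or poised genes, and H3K27ac, placed by p300 and related enzymes on the same lysine that PRC2 methylates, marks active promoters and enhancers, so a given histone tail carries either acetylation or trimethylation at lysine 27.

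Gene starts inside the domains differed in CpG content along with the Polycomb calls described below, and 6 of them, picked after their values were seen, are shown for that reason. Each is the 250 bases before a RefSeq gene start (GRCm38.p6), written 5′ to 3′ on the gene's strand in lower case, with every CpG dinucleotide in capitals. The first 3 had EZH2 and SUZ12 peaks overlapping the 1 kb on either side of the start, and the last 3 had neither.
Pax2: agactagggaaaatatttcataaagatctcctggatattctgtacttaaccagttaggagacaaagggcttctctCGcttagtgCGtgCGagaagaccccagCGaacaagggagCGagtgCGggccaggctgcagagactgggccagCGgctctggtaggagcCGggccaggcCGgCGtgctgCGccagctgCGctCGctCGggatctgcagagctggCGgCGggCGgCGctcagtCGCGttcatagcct
Scn8a: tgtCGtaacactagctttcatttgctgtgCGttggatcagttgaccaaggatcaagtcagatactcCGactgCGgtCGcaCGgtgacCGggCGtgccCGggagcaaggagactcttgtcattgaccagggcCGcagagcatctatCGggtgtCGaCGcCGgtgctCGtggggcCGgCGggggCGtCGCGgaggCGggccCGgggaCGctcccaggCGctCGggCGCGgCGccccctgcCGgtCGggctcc
Cdkn2a: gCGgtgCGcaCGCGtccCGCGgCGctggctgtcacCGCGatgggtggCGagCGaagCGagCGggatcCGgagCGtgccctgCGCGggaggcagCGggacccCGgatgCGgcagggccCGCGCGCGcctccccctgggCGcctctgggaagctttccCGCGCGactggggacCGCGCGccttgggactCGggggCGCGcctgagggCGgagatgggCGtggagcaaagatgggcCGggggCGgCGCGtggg
Rag1: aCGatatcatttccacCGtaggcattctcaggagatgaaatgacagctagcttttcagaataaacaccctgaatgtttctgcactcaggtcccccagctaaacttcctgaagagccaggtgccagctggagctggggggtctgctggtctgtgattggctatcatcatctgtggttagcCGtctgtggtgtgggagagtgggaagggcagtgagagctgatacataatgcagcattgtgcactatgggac
Prss34: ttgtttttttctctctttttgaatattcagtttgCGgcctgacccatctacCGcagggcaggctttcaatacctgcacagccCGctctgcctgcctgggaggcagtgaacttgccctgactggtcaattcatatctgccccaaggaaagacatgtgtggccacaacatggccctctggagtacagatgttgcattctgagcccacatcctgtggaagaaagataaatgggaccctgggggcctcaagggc
Lyz2: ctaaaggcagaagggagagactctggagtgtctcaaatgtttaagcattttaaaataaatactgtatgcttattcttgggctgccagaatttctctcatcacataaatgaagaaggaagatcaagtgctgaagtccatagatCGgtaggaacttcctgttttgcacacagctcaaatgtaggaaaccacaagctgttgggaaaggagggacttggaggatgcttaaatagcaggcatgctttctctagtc
The Pax2 sequence lies at chr19:44755502-44755751 on the plus strand, before the second of 3 listed starts of this kidney and eye patterning gene, and holds 20 CpGs. The Scn8a sequence (chr15:100870395-100870644, plus strand), before a start of a neuronal sodium channel gene, holds 30. The Cdkn2a sequence (chr4:89294620-89294869, minus strand), before the first of 2 listed starts of the gene for the cell-cycle inhibitor p16 and the tumour suppressor ARF, holds 40, a count reached by 1.66% of all listed starts. The Rag1 sequence (chr2:101649533-101649782, minus strand), for the recombinase of antigen receptor genes, and the Prss34 sequence (chr17:25298144-25298393, plus strand), for a mast cell protease, hold 3 CpGs each. The Lyz2 sequence (chr10:117282273-117282522, minus strand), for the lysozyme of macrophages, holds 1, and 93.4% of all listed starts hold as many or more. The count of Pax2 was reached by 23.7% of all listed starts, that of Scn8a by 7.66%, and that of Rag1 and Prss34 by 77.4%.

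The domains also held microRNA genes of the Hox clusters, of nerve cells and of heart muscle, among which loci with a shared seed recurred. Their mature sequences from RefSeq are shown 5′ to 3′ with the seed, bases 2 to 8, in capitals.
mmu-miR-196a-5p: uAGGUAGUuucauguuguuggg
mmu-miR-196b-5p: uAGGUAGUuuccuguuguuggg
mmu-miR-10a-5p: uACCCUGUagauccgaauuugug
mmu-miR-10b-5p: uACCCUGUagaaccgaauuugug
mmu-miR-9-5p: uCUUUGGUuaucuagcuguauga
mmu-miR-208a-3p: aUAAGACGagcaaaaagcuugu
mmu-miR-208b-3p: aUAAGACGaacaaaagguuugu
The miR-196 seed AGGUAGU came from 3 loci in 3 Hox domains: Mir196a-1 in the Hoxb domain, Mir196a-2 in the Hoxc domain and Mir196b in the Hoxa domain. The miR-10 seed ACCCUGU came from Mir10a in the Hoxb domain and Mir10b in the Hoxd domain. All 3 loci of miR-9, a microRNA of the nervous system, lay in separate domains, namely Mir9-1 in the Rhbg domain with 21 EZH2 summits, Mir9-2 in a domain of 39.3 kb with 10, and Mir9-3 in the Rhcg domain with 15. Mir208a and Mir208b, carried by introns of the cardiac myosin genes Myh6 and Myh7, shared 1 domain of 92.5 kb with 3 EZH2 and 6 SUZ12 summits. In all, 59 of 1005 listed hairpins (5.87%, 95% Wilson interval 4.58 to 7.50) lay in domains, a share close to that of protein-coding genes given below.

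The domains covered 77.6 Mb and took in 43227 of 123056 H3K27me3 peaks (35.1%) and 51.0% of the length those peaks cover. Their median width was 30.5 kb, the middle 50% of them lay between 24.0 and 43.3 kb, and the widest reached 288.8 kb. A domain joined a median of 19 peaks, from 2 to 106, and the peaks themselves filled a median of 72.5% of its length. The strongest H3K27me3 peak of a domain had a median fold enrichment, the authors' ratio over background, of 11.7, against 6.86 in regions of 5 to under 20 kb. The domains thus differ in texture: some are nearly solid (the Itsn1 domain was 97.1% filled by 19 peaks) and others are strings of short peaks (Sh3bgrl2, 46.5% filled by 18 peaks).

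The width limit cut through a continuum. Just inside it were domains in Sh3bgrl2 (20004 bp), Cav1 (20010 bp) and Sox5 (20013 bp), and just outside were regions of 19988 bp, 19981 bp (Hs3st3a1) and 19972 bp. Of these 6 regions, 1 on each side besides the small Sox5 domain carried EZH2 and SUZ12 peaks: Cav1 with a strongest EZH2 fold of 6.38 inside, and Hs3st3a1 with 6.88 outside.

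Most domains carried the complex that writes the mark. An EZH2 summit lay in 1277 of 2017 domains (63.3%, interval 61.2 to 65.4) and a SUZ12 summit in 1284 (63.7%, 61.5 to 65.7), against a background of 14.4% and 14.7% over all joined regions. Both were present in 1232 (61.1%), EZH2 alone in 45, SUZ12 alone in 52 and neither in 688 (34.1%, 32.1 to 36.2), where neither was the rule over all joined regions (84.1%). The 2 subunits were thus called in largely the same domains. Regions of 5 to under 20 kb had EZH2 in 27.4% (26.3 to 28.5) and SUZ12 in 28.3% (27.2 to 29.4).

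Longer regions have more room for a summit, and per length the lead over regions of 5 to under 20 kb was small. EZH2 summits numbered 7.13 per 100 kb in domains (Poisson interval 6.95 to 7.32) and 6.13 (5.94 to 6.32) in regions of 5 to under 20 kb, a ratio of 1.16. This ratio fell to 1.01 when gaps of up to 5 kb were joined. For SUZ12 the densities were 7.70 and 6.73 per 100 kb. Regions under 5 kb had lower densities, of 2.26 EZH2 and 2.33 SUZ12 summits per 100 kb.

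The lists differed in how much of them the domains hold. The domains held 53.8% of all SUZ12 summits but 29.6% of EZH2 summits, and all joined regions together left 127 of 11100 SUZ12 summits outside against 8614 of 18730 EZH2 summits. Inside domains the strongest EZH2 peak had a median fold of 7.44 and the strongest SUZ12 peak of 7.06.

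**Figure D1:**
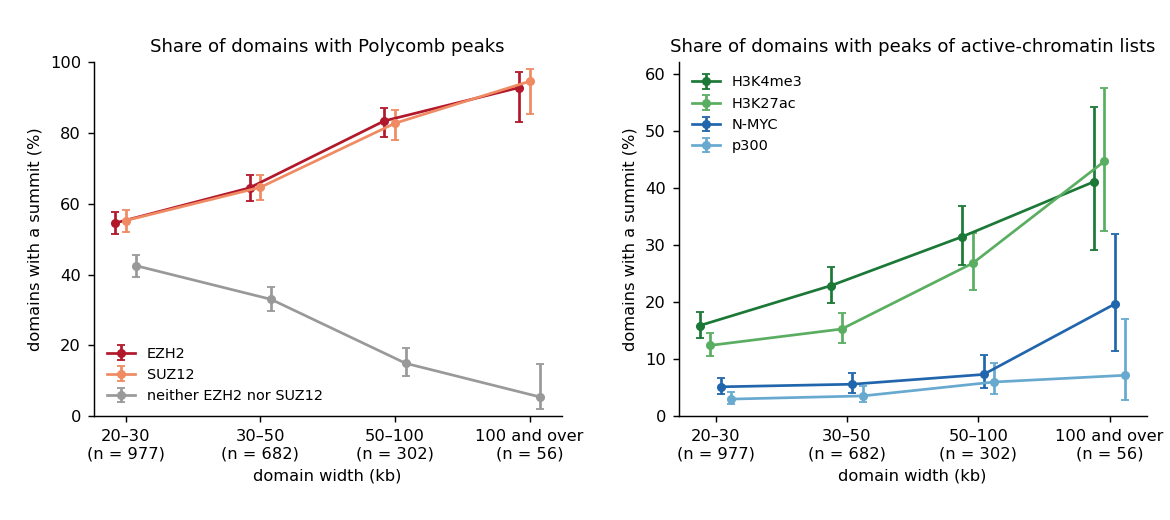
Share of domains (%) with at least 1 summit of EZH2 or SUZ12 or with neither (left) and of H3K4me3, H3K27ac, N-MYC or p300 (right), by domain width in kb; points are shares of the domains in each width class and bars are 95% Wilson intervals. EZH2 rises from 54.6% of domains of 20 to 30 kb to 92.9% of those of 100 kb or more, while domains with neither subunit fall from 42.5% to 5.36%.

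The wider the domain, the more often it carried PRC2. EZH2 lay in 54.6% of 977 domains of 20 to 30 kb, in 64.5% of 682 of 30 to 50 kb, in 83.4% of 302 of 50 to 100 kb and in 92.9% of 56 domains of 100 kb or more. Only 3 of those 56 widest domains had neither subunit. EZH2 summit density per 100 kb was 6.76, 6.99, 7.47 and 7.86 over the same classes, so the density moved far less than the share.

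Inside a domain, PRC2 sat towards the middle. When each domain was divided into 5 equal parts of length from both edges to the centre, the outermost part held 9.73% of EZH2 summits (interval 8.98 to 10.5) and the central part 26.1% (24.9 to 27.3), where an even spread would put 20% in each. SUZ12 went from 11.2% to 25.1%. H3K27me3 summits ran the other way, from 27.8% at the edges to 16.8% at the centre, and a domain begins and ends with a H3K27me3 peak by construction. Each peak counts once whatever its length, so these are shares of peaks and not of signal. In the Hoxc domain, for example, an H3K27me3 peak that ran from 40.6 to 190.6 kb counted once.

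The strongest EZH2 and SUZ12 summits of a domain lay a median of 457 bp apart, and 75.9% of such pairs (73.4 to 78.2) were within 1 kb. The strongest EZH2 and H3K27me3 summits lay 1365 bp apart in the median, and 39.6% were within 1 kb. The strongest EZH2 summit lay within 1 kb of a listed gene start in 535 of the 1244 domains with an EZH2 summit outside chromosome 18 (43.0%, 40.3 to 45.8). For the strongest H3K27me3 summit it was 329 of all 1970 domains there, with or without EZH2 (16.7%, 15.1 to 18.4), so the shares are over different sets of domains. The PRC2 maximum and the maximum of its mark were thus often at different places of the same domain.

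**Figure D2:**
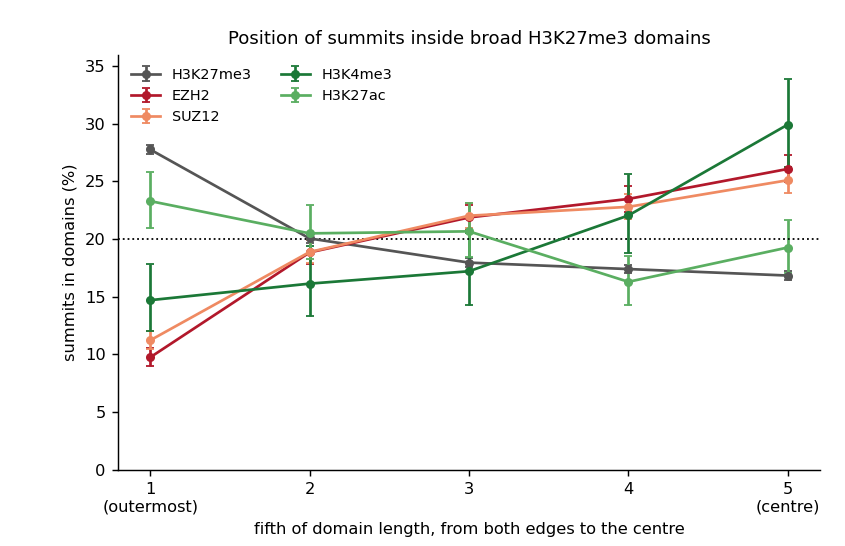
Share (%) of the summits of each list inside domains that fell into each of 5 equal parts of the domain's length, counted from both edges (1) to the centre (5); bars are 95% Wilson intervals and the dotted line at 20% is an even spread. EZH2, SUZ12 and H3K4me3 summits lean to the centre (26.1%, 25.1% and 29.9% in the central part), H3K27me3 summits to the edges (27.8%), and H3K27ac summits show neither lean as strongly (23.3% outermost, 19.3% central). Each peak counts once whatever its length.

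Genes of embryonic patterning made up the lists with the highest covered shares. Of 21887 protein-coding genes, 1181 had at least 50% of their body in domains, a background of 5.40%, and 754 lay in domains entirely. By start, 1241 of 17492 genes with a listed start began in a domain (7.09%). A covered gene was absent from most domains: 870 (43.1%) had at least 1, 370 (18.3%) touched no protein-coding gene body at all, and 11 had 5 or more.

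Hox genes, the homeobox genes that give segments their identity along the body axis, were covered in 38 of 39 cases, in 5 domains. The exception, Hoxb3, had 43.6% of its body in a domain. Of 111 other homeobox genes, 84 were covered (75.7%, interval 66.9 to 82.7), with Pax2, Dlx3, Dlx4 and Evx1 in the widest domains. Of these 84, 82 lay in domains with EZH2, as did 928 of all 1181 covered genes (78.6%). Among forkhead transcription factors it was 22 of 44, with Foxe1 in a domain of 100.7 kb and Foxb1 in one of 84.5 kb. Sox and T-box factors, regulators of cell fate, were covered in 17 of 36 cases, including Sox2 (44.1 kb, 13 EZH2 and 14 SUZ12 summits), Sox8, Sox21 and Tbx3. Gata and neural bHLH factors gave 18 of 37, with Gata4, a heart and gut factor, in a domain of 150.8 kb with 20 EZH2 and 11 SUZ12 summits, and Atoh8, Twist2 and Olig1 as further cases.

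Among signalling genes, Wnt ligands and their Frizzled receptors were covered in 14 of 33 cases. Wnt3a and Wnt9a shared a domain of 81.4 kb with 15 EZH2 and 19 SUZ12 summits, and Wnt3 and Wnt9b one of 79.0 kb with 5 EZH2 and 10 SUZ12 summits. Potassium channel genes, active in nerve and muscle, gave 14 of 84 (16.7%, 10.2 to 26.1). Kcnk3 lay in a domain of 71.9 kb with 2 EZH2 and 8 SUZ12 summits, and Kcnn3 in one of 49.8 kb with neither.

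Some gene families had few covered genes or none. No gene was covered among 83 ribosomal protein genes, 22 MYC-family and target genes, 57 clustered protocadherins and 353 vomeronasal receptors, which allows shares of up to 4.42, 14.9, 6.31 and 1.08% by the Wilson interval. For the MYC-family and target genes and the protocadherins these limits lie above the 5.40% of all genes, so a share equal to that of all genes is within their intervals. Of 1106 olfactory receptors, which are silent outside the nose, 22 were covered (1.99%, 1.32 to 2.99).

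**Figure D3:**
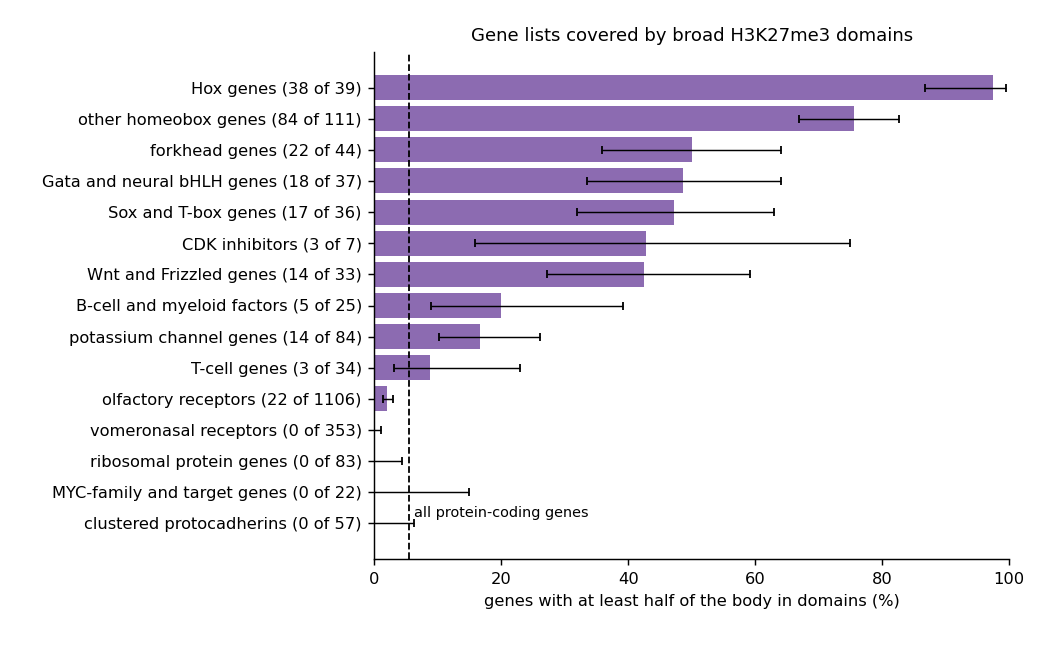
Share (%) of the genes of each list with at least 50% of the gene body inside broad H3K27me3 domains; bars are shares, black lines 95% Wilson intervals, and the dashed line is the share of all 21887 protein-coding genes (5.40%). Hox genes stand at 38 of 39 and other homeobox genes at 84 of 111, while ribosomal protein and MYC-family genes stand at 0.

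The Hox clusters gave 4 of the 10 widest domains. The Hoxc domain (chr15:102862134-103150910) was the widest, with 288.8 kb, 47 EZH2 summits up to 19.4-fold, 49 SUZ12 summits up to 16.6-fold and no summit of H3K4me3, H3K27ac, N-MYC or p300. The Hoxa domain (197.1 kb, with Evx1) had 33 EZH2 and 25 SUZ12 summits and 3 H3K4me3 islands of at most 5.64-fold, without H3K27ac. The Hoxd domain (193.1 kb, with Evx2) had 26 EZH2 and 25 SUZ12 summits, 3 H3K4me3 islands of up to 8.64-fold, 3 H3K27ac summits and 1 N-MYC summit.

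Hoxb differed from the other clusters. Its larger domain (244.5 kb, from Calcoco2 to Hoxb4) carried 36 EZH2 and 41 SUZ12 summits and, 926 bp from the Hoxb4 start, an H3K4me3 island of 29.5-fold and 2680 bp beside H3K27ac of 7.58-fold. Hoxb1 and Hoxb2 lay in a second domain of 38.5 kb with 18 EZH2 and 13 SUZ12 summits and no active peak, and Hoxb3 lay partly in the gap between both Hoxb domains.

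The Pax2 domain measured 278.4 kb (31 EZH2, 29 SUZ12 summits) and the Scn8a and Fignl2 domain 247.7 kb, both without a summit of the 4 active lists. A domain of 201.6 kb joined Dlx3 and Dlx4 with the integrin gene Itga3 and reached the metabolic kinase gene Pdk2, at whose start it held H3K4me3 of 10.4-fold. The domains of Itsn1 (172.1 kb), the calcium channel gene Cacna2d2 (165.7 kb) and the ammonia transporter gene Rhcg (163.4 kb, with Mir9-3) completed the 10.

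The highest EZH2 folds were at Sp9 (28.8), Gjc1 (27.4), Bahcc1 (26.3), Tbr1 (26.2) and Sox21 (26.2), and the highest SUZ12 folds at Lbx1 (22.2), Sp9 (21.2), Lhx9 (19.9), Irx5 (19.4) and the Hoxd cluster (19.2). Sp9, Tbr1, Lbx1, Lhx9 and Irx5 are transcription factors of brain, muscle or limb development. Their domains ranged from 25.5 kb at Lhx9 to 95.3 kb at Lbx1. Of the 9 domains with these folds, the Hoxd domain was the one that also belonged to the 10 widest.

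**Figure D4:**
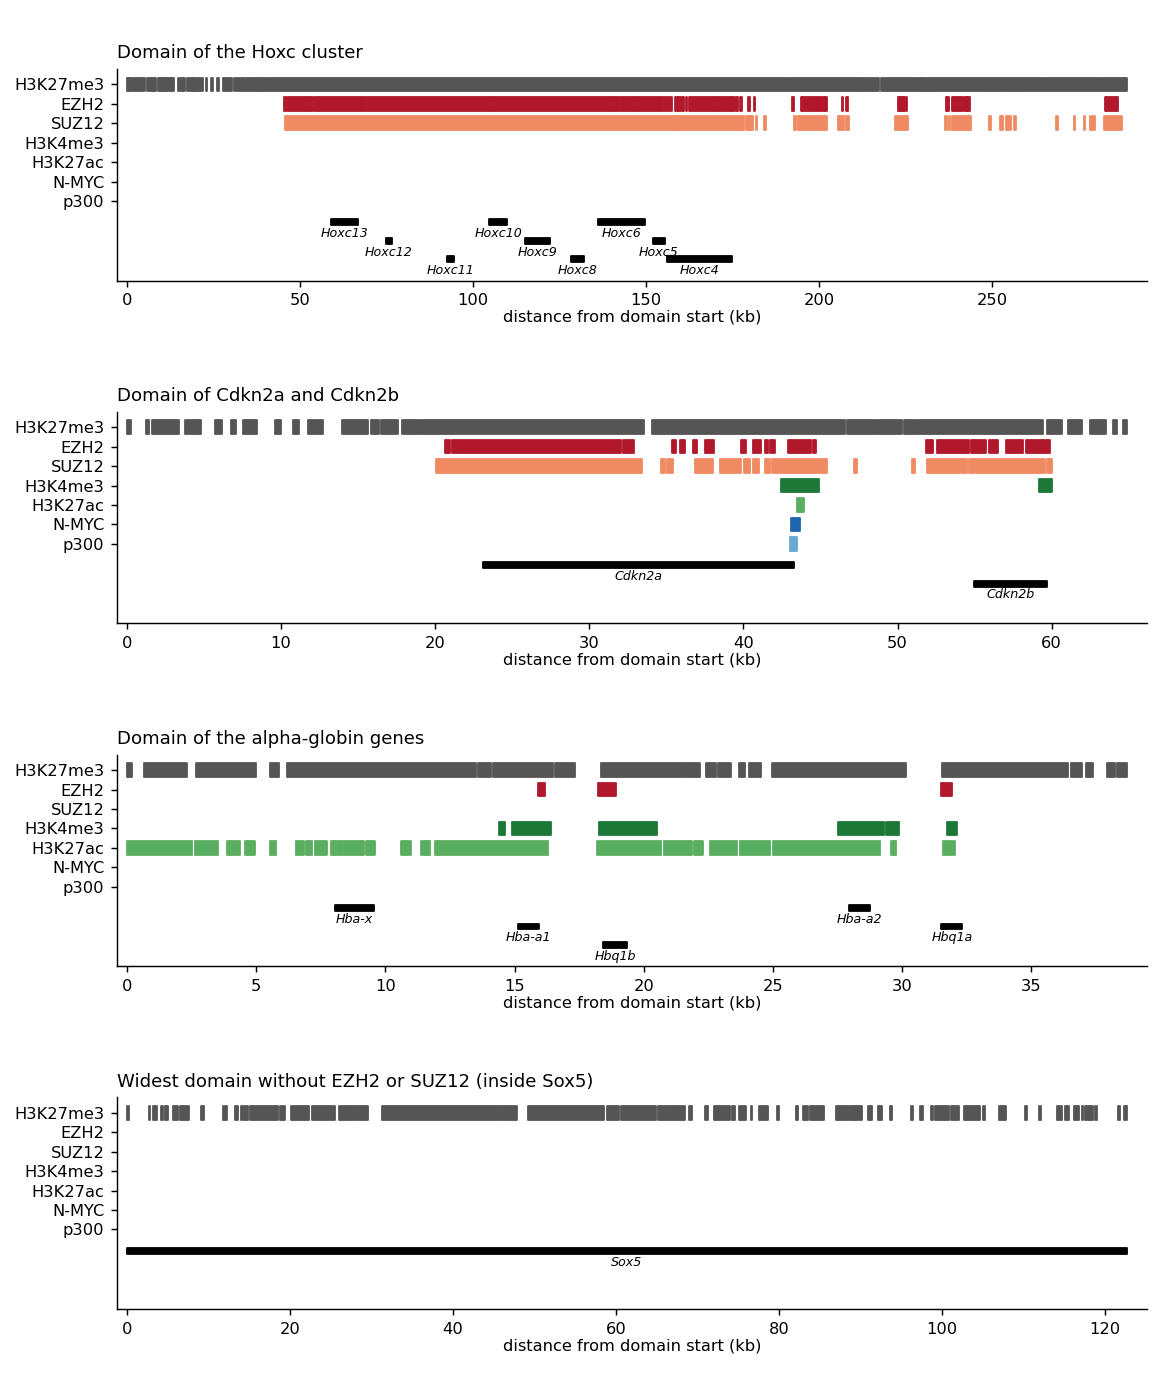
Peaks of the 7 lists (coloured boxes, one row per list) and protein-coding genes (black) in 4 domains, against distance in kb from the domain start; very short peaks are drawn at a minimum width so that they stay visible. The Hoxc domain (288.8 kb) carries PRC2 without active marks, the Cdkn2a domain (64.9 kb) has PRC2 with H3K4me3 at both genes, the alpha-globin domain (38.7 kb) overlays H3K27me3 with H3K27ac and H3K4me3, and the Sox5 domain (122.7 kb) holds H3K27me3 alone.

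Domains without either PRC2 subunit made up a different class. They were narrower (median 27390 bp against 33507 bp with both subunits), less filled (59.2% against 78.9%) and weaker in their strongest H3K27me3 peak (8.09-fold against 14.7-fold). Of these 688 domains, 35.6% touched no protein-coding gene body, against 7.55% of the 1232 with both subunits.

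The widest lay in Sox5 (122.7 kb, in the gene body), 46.2 kb from Bcl2l11 (103.8 kb), in Cep112 (103.4 kb), over a cluster of tryptase-family genes, Prss34, Prss28, Prss29 and Tpsb2 (78.4 kb), and at Cyp11a1, Ccdc33 and Stra6 (73.3 kb). These 5 held 1 summit of the 4 active lists in all, an H3K27ac summit of 2.68-fold in the domain near Bcl2l11. The domain of 20013 bp inside Sox5 did carry EZH2 (7.29-fold), SUZ12 (6.33-fold) and an H3K4me3 island of 15.4-fold. A list ends at the authors' threshold, so a domain without a called peak may still hold PRC2 below it.

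CpG content differed between both classes. A listed start was called CpG-rich when its 300 bases (250 before and 50 after the start) had a CpG observed/expected ratio of at least 0.6 and at least 50% G and C, which held for 45.1% of 21263 listed starts and for 48.1% of the 1507 inside domains. In domains with both subunits 55.6% of 1247 starts were CpG-rich (median ratio 0.659), and in domains with neither 7.92% of 202 (median 0.235).

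Read per domain, outside chromosome 18, for which no starts were used, 598 of 1970 domains had a CpG-rich start. Of these, 96.5% (94.7 to 97.7) carried EZH2 and 2.17% neither subunit. Among 385 domains with other starts 64.2% (59.2 to 68.8) carried EZH2, and among 987 without a listed start 42.6% (39.5 to 45.7). The strongest H3K27me3 peak ordered the same way, with medians of 15.1-, 11.9- and 9.70-fold. So did width, with medians of 34641, 31087 and 28840 bp, and the part of width in these shares was not tested. Starts were listed for 17492 of 21887 genes, so a domain without a listed start may still hold a gene start.

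CpG-poor starts in domains were not always free of the complex, since 46.0% of 782 had EZH2 within 1 kb. Outside all joined regions, CpG-rich starts had EZH2 within 1 kb in 77.6% of 7554 cases but SUZ12 in 1.77%. CpG-rich starts in domains had EZH2 at 92.7% and SUZ12 at 92.6%, and those in regions of 5 to under 20 kb at 81.4% and 80.7%.

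**Figure D5:**
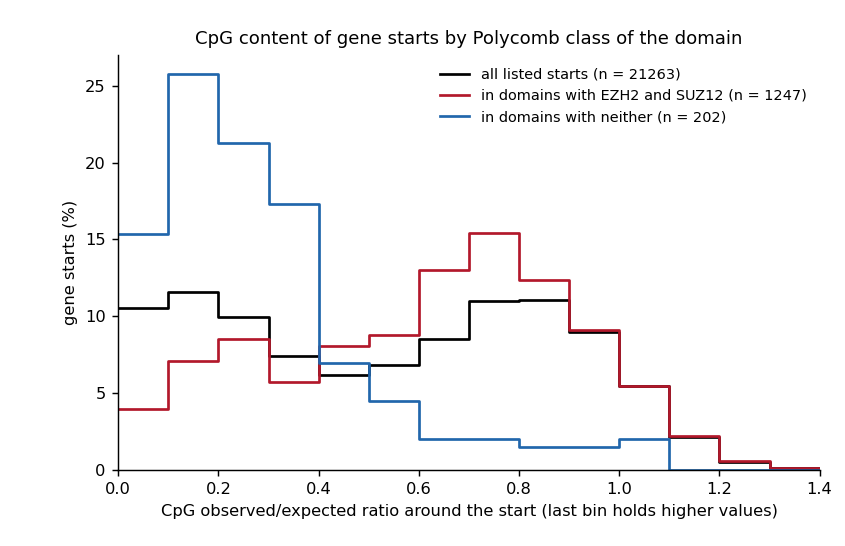
Distribution of the CpG observed/expected ratio of gene starts, in bins of 0.1, as a share (%) of all 21263 listed starts (black), of 1247 starts in domains with EZH2 and SUZ12 (red) and of 202 in domains with neither (blue). Starts in domains with neither subunit lie mostly at low ratios (median 0.235), and those in domains with both at higher ones (median 0.659).

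Islands of H3K4me3 were present in a minority of domains and were mostly weak. They lay in 429 of 2017 domains (21.3%, interval 19.5 to 23.1), against a background of 5.95% over all joined regions, and numbered 558, or 3.30% of all H3K4me3 summits. Their median fold was 6.05 and their median width 796 bp, against 18.2-fold and 1791 bp for 15170 peaks outside all joined regions. These traits were not particular to domains, since the 826 H3K4me3 peaks in regions of 5 to under 20 kb had medians of 5.97-fold and 870.5 bp. In density they were sparser in domains (0.719 per 100 kb) than in regions of 5 to under 20 kb (1.25 per 100 kb).

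Of the 558 islands, 93.9% overlapped an H3K27me3 peak, 84.4% an EZH2 peak and 81.7% a SUZ12 peak, while 38.4% overlapped H3K27ac. Domains are built from H3K27me3 peaks, which filled a median of 72.5% of their length, so a high value of the first share follows from the rule. In regions of 5 to under 20 kb, 78.6% of H3K4me3 peaks overlapped EZH2, 75.5% SUZ12 and 42.6% H3K27ac. Outside joined regions 85.4% of H3K4me3 peaks overlapped H3K27ac, 45.4% EZH2 and 1.19% SUZ12. H3K4me3 with EZH2 and without H3K27ac made up 54.8% of the islands (50.7 to 58.9). In bulk chromatin, both marks on the same nucleosomes, on the 2 alleles or in different cells cannot be told apart, and a weak peak may stand for few cells or for little signal in each.

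The 34 islands in gaps between H3K27me3 peaks differed in company. EZH2 overlapped 11.8% of these (4.67 to 26.6) against 89.1% of the islands on H3K27me3 (86.2 to 91.5), and H3K27ac overlapped 58.8% (42.2 to 73.6) against 37.0% (33.0 to 41.2). Islands within 2 kb of a domain edge had EZH2 in 55.6% of 36 cases, against 87.2% of 289 islands more than 10 kb inside, while the median folds of both sets were close, at 5.81 and 5.88. Peaks of 15-fold or more made up 16.7% and 10.4% of these sets, against 55.0% outside joined regions.

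The strongest islands lay mostly at gene starts. The 10 highest were at Hipk2 (33.8-fold), Gphn (31.3), Arhgef12 (30.5), Hoxb4 (29.5), Aplp2 (29.3), Camsap2 (29.2), Phc1 (29.0), Bahcc1 (28.9), Pbx3 (27.4) and in the Skida1 domain (27.4). The last lay outside the body of Skida1, which held another island of 12.1-fold. At Hipk2, Gphn, Arhgef12, Aplp2, Camsap2 and Phc1 the island peaked within 500 bp of a listed start. In 5 of these domains (Hipk2, Aplp2, Camsap2, Phc1 and Pbx3) no gene had 50% of its body covered, so the domain took in the start and part of the gene. All 10 carried EZH2, from 5.23-fold at Phc1 to 26.3-fold at Bahcc1, and all but Phc1 carried SUZ12. Phc1 encodes a subunit of the other main Polycomb complex, PRC1.

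The Cdkn2a and Cdkn2b domain (chr4:89251359-89316220, 64.9 kb) carried many PRC2 summits and few of the active lists. It held 20 EZH2 summits (strongest 14.2-fold), 15 SUZ12 summits (10.97-fold) and 1 H3K27ac summit of 3.49-fold. An H3K4me3 island of 24.5-fold and 2474 bp peaked 488 bp from the first Cdkn2a start, with N-MYC (6.41-fold) and p300 (3.66-fold) summits 162 and 117 bp from it, and a weaker island of 5.96-fold lay 99 bp from the Cdkn2b start. Cdkn1c lay in a domain of 33.7 kb with 4 EZH2 and 6 SUZ12 summits. The Cdkn1c domain also held 2 H3K27ac summits (up to 3.71-fold) and 1 N-MYC summit (3.41-fold). Cdkn2a, Cdkn2b and Cdkn1c made 3 covered genes among 7 CDK inhibitors (interval 15.82 to 74.95%), against 5.40% of all genes. These 3 genes lay in 2 domains, because Cdkn2a and Cdkn2b shared 1, and the interval does not allow for that.

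H3K27ac islands lay in fewer domains than H3K4me3. They were called in 331 (16.4%, 14.9 to 18.1; background 5.79%), with 1142 summits of 87072 (1.31%) and a median fold of 3.95, against 4.04 outside joined regions. Per 100 kb, H3K27ac had 1.47 summits in domains, 1.84 in joined regions of 5 to under 20 kb and 2.82 in those under 5 kb. In the domains none reached 15-fold, a level that 5.06% of the peaks outside joined regions passed. Of the H3K27ac peaks in domains 88.2% overlapped an H3K27me3 peak, a share that the rule makes high, and 23.5% an EZH2 peak. The strongest were at Zhx2 (14.4-fold), Gphn (14.1), Smo (13.2), Guca1a (12.01), the Skida1 domain (12.00, outside the gene body), Gabarapl1 (10.7), Slc4a1 (10.1), Pik3c2a (9.92), Nckap1 (9.88) and Hipk2 (9.88).

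A few domains held much of the acetylation. 26 domains with 10 or more summits held 416 of the 1142. The following were named after their values were seen. Pkp1, a desmosome gene, had 41 summits in 87.9 kb, Cdkl1 and Map4k5 had 37 in 67.6 kb, and Lmo2, a transcription cofactor of blood stem cells and a T-cell leukaemia oncogene, had 29 in 88.9 kb with an H3K4me3 island of 20.8-fold.

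The alpha-globin domain (chr11:32268545-32307234, 38.7 kb) had 21 H3K27ac summits, 6 H3K4me3 islands of up to 18.3-fold, 3 EZH2 summits of up to 4.98-fold and no SUZ12 summit. The adult genes Hba-a1 and Hba-a2 are near-identical copies, so the placing of reads between these is uncertain. The domain of Slc4a1, the anion exchanger of red cells, had 14 H3K27ac summits and an H3K4me3 island of 13.1-fold over 5163 bp. Both erythroid marker genes with a listed start, Gata1 and Klf1, had H3K4me3 within 1 kb, as did 51.3% of all listed starts. The part that erythroid cells in the thymus sample have in these islands was not tested.

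Few of the N-MYC and p300 summits lay in domains. N-MYC had 132 summits in 121 domains (6.00%, interval 5.04 to 7.12; background 1.47%), or 1.35% of its list, and p300 had 86 in 75 (3.72%, 2.98 to 4.64; background 0.949%), or 0.550%. Per 100 kb, N-MYC had 0.170 summits in domains, 0.277 in joined regions of 5 to under 20 kb and 0.310 in those under 5 kb, and p300 had 0.111, 0.186 and 0.314. The larger share of domains with a summit thus went with a lower density per length. The median N-MYC fold was 4.65 in domains and 5.42 outside joined regions.

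Of the 132 N-MYC peaks, 72.7% overlapped EZH2, 66.7% SUZ12, 69.7% H3K4me3 and 50.8% H3K27ac. Outside joined regions 59.6% of N-MYC peaks overlapped EZH2, 0.638% SUZ12, 84.9% H3K4me3 and 97.3% H3K27ac, and 2.06% overlapped neither H3K4me3 nor H3K27ac, against 33 of 132 (18.4 to 33.0%) in domains. The strongest N-MYC peaks were in a domain with no PRC2 summit and no gene, 129.6 kb from Opa1 (9.59-fold), and at Cyp46a1 (8.98), Gpr153 and Hes3 (8.90), Fosl2 (8.76) and Ccdc177 (8.72). The Gpr153 peak had no H3K4me3 summit in its domain.

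The E-box CACGTG, the preferred site of MYC proteins and its own reverse complement, was found in the 300 bases of 7.84% of all listed starts and 6.37% of those in domains. Among starts with N-MYC within 1 kb the shares were 13.04% of 7023 overall and 11.8% (6.36 to 21.0) of 76 in domains.

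The strongest p300 peaks lay at Dmwd in the Rsph6a domain (11.7-fold), at the Mapre3 start in the Dpysl5 domain (10.5), at Mafa (9.37), at Cyp46a1 (7.82) and at Smpd3 (6.54). Mafa, an insulin gene regulator, had no H3K4me3, H3K27ac or N-MYC summit in its domain.

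No summit of H3K4me3, H3K27ac, N-MYC or p300 was present in 1435 domains (71.1%, 69.1 to 73.1). In all, 819 domains (40.6%) had a PRC2 subunit and none of these. Over all joined regions, these 4 lists had summits in 5.95, 5.79, 1.47 and 0.949%, each a lower share than in domains. Lacking them is thus not a trait particular to domains.

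Of 10 T-cell marker genes with a listed start, 9 had H3K4me3 within 1 kb, as did 51.3% of all 21263 listed starts. None of 13 T-cell markers was covered by a domain. With 5.40% of all genes covered, 0 of 13 does not set these markers apart. H3K4me3 was also present at 1 of 3 B-cell markers, 1 of 4 myeloid, both erythroid and 1 of 4 thymic epithelial markers. Covered were 2 of 6 myeloid markers (Lyz2 and Cebpa), 1 of 4 thymic epithelial markers (Krt8) and no B-cell or erythroid marker. Of 34 T-cell genes, 3 were covered by domains, a share (8.82%, 3.05 to 22.96) whose interval includes the background.

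Rag1 and Rag2, which together cut antigen receptor genes in immature lymphocytes, lay whole in a domain of 91.7 kb (chr2:101573088-101664831) with 2 EZH2 summits of at most 4.27-fold and 2 SUZ12 summits of at most 3.99-fold. Il2ra, the alpha chain of the interleukin-2 receptor, had 55.2% of its body in a domain of 31.1 kb with neither subunit. Gata3, a T-cell master regulator named here after its value was seen, had 31.6% of its body in a domain of 26.3 kb. This domain held 7 EZH2 (13.6-fold) and 4 SUZ12 summits. It also held 1 H3K4me3 (3.76-fold), 1 H3K27ac (5.36-fold), 2 N-MYC (up to 5.87-fold) and 1 p300 summit (4.53-fold). The start of Gata3 had H3K4me3 within 1 kb.

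Genes of other blood lineages were covered in 5 of 25 cases (interval 8.86 to 39.1%). Gata2, a factor of stem and mast cells, lay in a domain of 28.1 kb with 8 EZH2 (12.3-fold) and 2 SUZ12 summits, Cebpa, the myeloid factor, in one of 30.8 kb with 2 and 1, and Id1 in one of 28.8 kb with 3 and 4. Lyz2 lay in a domain of 27.1 kb with neither, and Spib, a B-cell factor, in one of 24.5 kb with 1 SUZ12 summit of 3.30-fold. The Cebpa domain also held an H3K4me3 island of 6.81-fold. In the Spib domain there were 1 H3K4me3 (3.49-fold) and 4 H3K27ac summits (up to 3.64-fold). The domains of Gata2, Id1 and Lyz2 held no summit of the 4 active lists.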

How the data were processed

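Chromatin of 9 samples was used as labelled: 7 immunoprecipitations with a peak list each and 2 inputs, which entered no result. Per the submitters' processing notes, FastQC, Bowtie2, SAMtools, MACS2 and deepTools were used, with builds mm10 and GRCm38; versions and settings are not given in the sources used here, nor is the number of reads, so depth is unknown. Fold enrichment is the authors' linear ratio over background, and p-values and q-values stand as −log10 in the deposited lists, which end at a −log10 q of about 2. The deposited whole-number score and the width and position columns are the authors' too, and the score entered no result. A peak's place is its summit unless stated. For starts said to have a list within 1 kb, any overlap of a peak with the 1 kb on either side counted.

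Domains, genes (RefSeq GRCm38.p6, protein-coding; covered means at least 50% of the body), gene starts and 300-base promoter windows were computed with Python 3.11.15 (numpy 2.4.6, pandas 2.3.3, scipy 1.17.1, matplotlib 3.10.9). Starts were listed for 17492 of 21887 genes. Stitching and assignment were tested on simulated data. The genes named are those of the 10 widest domains, the 5 with the highest EZH2 and SUZ12 folds, the 10 with the strongest H3K4me3 and H3K27ac, the 5 with the strongest N-MYC and p300, the 5 widest without PRC2, the 3 on each side of the limit, and examples from each gene list in its widest domains. Members and lists were chosen with earlier results of these data known. Alternatives were gaps of 1 and 5 kb, minimum widths of 10 and 30 kb, overlap in place of summits, q of 1e-05, fold of 4, autosomes only, and other definitions of a covered gene.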

Additional observations from a re-analysis of the deposited data

How the results depend on the processing

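Of 57 values of 7 results under the alternatives, 18 lay within the 95% interval of the main value, among them all those for overlap in place of summits and for autosomes only. No alternative brought the ratio of EZH2 density below 1, but with gaps of up to 5 kb its 95% interval for counting error (0.971 to 1.055) included 1. With gaps of up to 1 kb joined (1070 domains), EZH2 lay in 79.9% of domains, SUZ12 in 82.1%, neither in 16.4%, H3K4me3 in 23.4% and H3K27ac in 14.1%. With this gap 3.06% of genes were covered, and EZH2 density was 1.34 times that of regions of 5 to under 20 kb. With gaps of up to 5 kb (2506 domains) the values were 58.3% for EZH2, 58.4% for SUZ12, 39.1% for neither, 18.1% for H3K27ac, 7.21% of genes and a ratio of 1.01. A minimum width of 10 kb (4695 domains) gave 47.9%, 48.6% and 49.1% for EZH2, SUZ12 and neither, 16.3% for H3K4me3, 13.0% for H3K27ac and 7.79% of genes. One of 30 kb (1040 domains) gave 71.5%, 71.5% and 26.25%, 26.3% for H3K4me3, 20.2% for H3K27ac and 3.78% of genes. With q of 1e-05 in every list (1563 domains) the shares were 66.9%, 67.9% and 30.01%, 14.5% for H3K27ac and 4.32% of genes, with a ratio of 1.09. A fold of 4 or more in every list (1355 domains) gave 70.04%, 68.3% and 27.5%, 11.1% for H3K27ac, 3.72% of genes and a ratio of 1.11. Genes wholly in domains made up 3.44%, and genes starting in one 7.09%. The share of domains without PRC2 thus depended most on the gap and the width limit. No paired analysis was possible because each antibody had 1 library and the labels give no replicate numbers. Depth is unknown, so a weak peak that missed the authors' threshold cannot be told from an absent one.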

Other observations

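The domains were unevenly spread over chromosomes. Chromosome 11 had 242 domains, or 15.04 per 100 protein-coding genes, and 10.9% of its genes were covered. Chromosome 2 had 237 (13.3 per 100 genes), chromosome 10 had 43 (4.30), chromosome X had 6 (0.621) and chromosome Y none. Of all H3K27me3 peaks, 1.35% were on X and 9.60% on chromosome 11. Domains came in groups: 45.5% lay within 50 kb of another, and a run of 12 domains over Rapgef4 and Map3k20 on chromosome 2 spanned 742 kb.

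Among other kinds of genes, long noncoding RNA genes were covered in 7.02% of 12727 cases (6.59 to 7.47) and pseudogenes in 2.65% of 9944. Transfer RNA genes, which RNA polymerase III transcribes in large clusters of near-identical copies, were covered in 68 of 408 cases (16.7%), all in 11 domains, and 65 were on chromosomes 1, 3 and 13. A domain of 33.8 kb at Fcgr3 held 15 of these with 5 EZH2, 3 SUZ12 and 4 H3K4me3 summits, and a domain of 99.7 kb at Gpx5 and Gpx6 held 12 with 17 EZH2 and 22 SUZ12 summits. Reads in such copies are placed with uncertainty, and the share rests on a few clusters.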
